A study of Mus musculus with 45 samples.

Results

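The genes described are 9 members of the S100 family of calcium-binding proteins: S100a8, S100a9, S100a4, S100a6, S100a10, S100a11, S100a1, S100a13 and S100g. They were chosen by name, with earlier results of these data known, from a table of 55367 gene symbols, and all 9 passed the filter on low counts in every tissue. S100 proteins are small EF-hand proteins that work mostly as dimers, and they change shape when calcium binds and then attach to target proteins. S100a8 and S100a9 form calprotectin, an abundant protein of the neutrophil cytosol that is released at sites of inflammation and acts on receptors such as Tlr4 and Ager. S100a4, S100a6, S100a10 and S100a11 work mostly inside cells, on annexins, myosin and other partners at the membrane and cytoskeleton, whereas S100g, also named calbindin-D9k, buffers calcium in absorptive epithelia under the control of vitamin D.

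RNA was sequenced from 45 samples in 15 groups of 3. The animals were female Balb/c mice with no engineered allele named in the labels, and all carried a porous polycaprolactone scaffold placed under the skin of the back, an implant that host cells enter. Tumor-bearing mice received 67NR, 4T07 or 4T1 cells in the mammary fat pad, 2 × 1000000 cells per mouse with each line. Scaffold, lung, spleen and primary tumor were taken on day 14. Healthy mice without tumor cells gave the control scaffolds, lungs and spleens. The 3 lines come from one spontaneous mammary tumor of a mouse and are used as models of tumors that stay local (67NR), that shed cells without forming nodules (4T07) and that metastasize (4T1); each is a single cultured line, so its effect cannot be told apart from that of any other property of the line. The labels gave no age and did not link the tissues of a mouse, and the p-values measure the spread between samples that the labels list as separate.

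Library totals ran from 3491888 to 8175380 counts, with a median of 5149589, and levels are given as CPM (counts per 1000000 counts of the library). The libraries count tags near the 3′ end of polyadenylated RNA, so that a level does not scale with transcript length. A gene was called when its change was more than 2-fold and its adjusted p (edgeR quasi-likelihood test, Benjamini-Hochberg adjustment over all genes tested) was under 0.05 in tumors or under 0.1 elsewhere. Single libraries stood apart from their groups in markers of other cells. The 4T07 scaffold replicate 1 had a summed level of 6 erythroid markers of 11343 CPM against 1360 CPM in the lowest of its group, and of 10 immature neutrophil granule markers of 1533 CPM against 216.8 CPM. The 4T07 tumor replicate 1 had 10337 CPM against 2029.7 CPM and 1238 CPM against 189.7 CPM for the same sums. The 67NR tumor replicate 2 had 417.1 CPM of 8 lung epithelium markers against 84.66 and 118.3 CPM in the other samples of its group. For 4T07 against control scaffolds and for 4T07 and 4T1 against 67NR tumors, the S100a8 and S100a9 changes are given with and without the library concerned. Other comparisons that use these libraries, among them the differences between tissues, are given with all libraries unless a left-out library is named. In whole tissue, a change in the number of cells of a type and a change in RNA per cell cannot be told apart.

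The number of members called differed by tissue and by line. Against control lungs, 6 of the 9 genes were called with 4T07 tumors, where 29% of 21937 genes were called, 3 with 4T1 tumors, where 4.61% were called, and 2 with 67NR tumors, where 4.25% were called. Against control spleens, 6 were called with 4T07 (18.6% of 21128 genes), 5 with 4T1 (19.9%) and 2 with 67NR (2.26%). Against control scaffolds, 6 were called with 4T07 (7.44% of 22156 genes), 0 with 4T1 (0.0226%) and 0 with 67NR (0%). The median log2 fold change of the 9 genes against control was 1.63 in 4T07 spleens, where that of all genes was -0.09, and -0.59 in 4T07 scaffolds, where that of all genes was 0.04. In tumors, 7 members were called for 4T07 against 67NR (28.9% of 20508 genes), 3 for 4T1 against 67NR (20.7%) and 3 for 4T1 against 4T07 (8.61%). Comparisons with a common control group share its samples.

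Between the 2 invasive lines, 3 members were called in lungs (23.5%), 1 in spleens (2.33%) and 0 in scaffolds (1%), and with all libraries S100a8 and S100a9 were called in none of the 4 tissues. Against 67NR, 4 were called with 4T07 (29.7%) and 4 with 4T1 (5.03%) in lungs, 6 (14.7%) and 6 (20.7%) in spleens, and 3 (5.85%) and 0 (0.0226%) in scaffolds. The scaffold calls were the least stable. Leaving out 1 library moved the 6 calls against control scaffolds to 1 without the control scaffold replicate 1, and to 4 without the 4T07 scaffold replicate 1. The 3 calls between lines in scaffolds fell to 0 without the 67NR scaffold replicate 1 and to 1 without the 4T07 scaffold replicate 1.

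**Figure D1:**
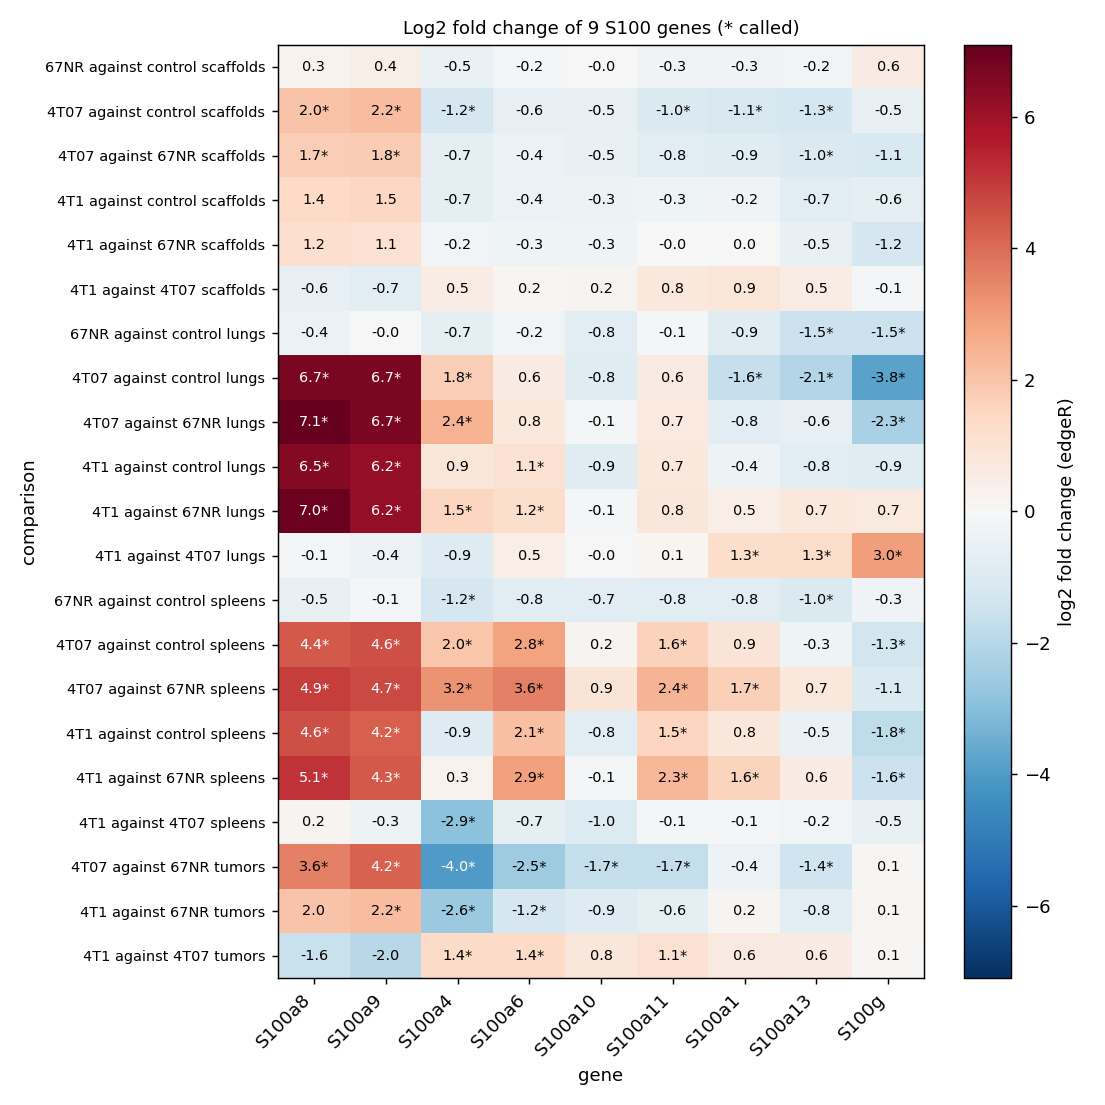
Log2 fold change (edgeR) of the 9 genes in columns and 21 comparisons in rows, red higher and blue lower in the first group named; an asterisk marks a call. S100a8 and S100a9 reach 6.23 to 7.08 in the lung comparisons of 4T07 and 4T1 with control and 67NR, and S100a4 is lowest for 4T07 against 67NR tumors, at -4.00.

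S100a8 and S100a9 had group means that differed 193-fold and 211-fold between the highest and the lowest of the 15 groups. In control lungs S100a8 was at 124.1, 127.0 and 102.8 CPM, and in lungs of mice with 67NR tumors at 90.98, 118.1 and 74.79 CPM. In lungs of mice with 4T07 tumors it was at 11806, 12347 and 10221 CPM, and with 4T1 tumors at 12788, 13711 and 6044 CPM. The lungs of the 4T07 and 4T1 groups did not overlap with those of the control and 67NR groups, and they overlapped with each other. The log2 fold change of S100a8 against control lungs was 6.66 (SE 0.30, adjusted p = 1.81e-12) with 4T07 and 6.53 (SE 0.30, adjusted p = 2.25e-11) with 4T1, and 4T1 against 4T07 lungs gave -0.13 (SE 0.23, adjusted p = 0.712). S100a9 gave 6.67 (SE 0.28) and 6.23 (SE 0.28) in the same comparisons with the control lungs, which they share. In lungs of mice with 67NR tumors neither gene was called.

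In spleens too, the 4T07 and 4T1 groups lay above the control and 67NR groups, at a higher baseline than in lungs. S100a8 was at 667.8, 927.3 and 538.4 CPM in control spleens and at 454.6, 610.3 and 499.2 CPM with 67NR tumors. It was at 13611, 11010 and 14620 CPM with 4T07 tumors and at 17958, 7025 and 17621 CPM with 4T1 tumors, again without overlap with the control and 67NR spleens. The log2 fold changes against control spleens were 4.37 (SE 0.36, adjusted p = 4.37e-07) and 4.58 (SE 0.36, adjusted p = 3.01e-07), and for S100a9 4.56 (SE 0.34) and 4.22 (SE 0.33). Together the counts of S100a8 and S100a9 made up 2.25% ± 0.26 (SD, n = 3) of 4T07 spleen libraries and 2.12% ± 0.91 of 4T1 spleen libraries, against 0.116% ± 0.033 of control spleen libraries. The change was larger in lungs than in spleens for both lines: the difference between the tissues in the S100a8 log2 fold change was 2.17 (SE 0.63, adjusted p = 0.0126) for 4T07 and 1.93 (SE 0.63, adjusted p = 0.0389) for 4T1. The 4T1 difference was not called without the 4T1 lung replicate 2, the 4T1 spleen replicate 2 or the control spleen replicate 2, where the adjusted p for S100a8 was between 0.101 and 0.103.

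Scaffolds showed a smaller change with wider spread. S100a8 was at 273.5, 843.2 and 161.0 CPM in control scaffolds, at 564.2, 562.3 and 494.3 CPM with 67NR tumors, at 3966, 951.9 and 832.4 CPM with 4T07 tumors and at 1619, 1086 and 1027 CPM with 4T1 tumors. The 4T1 scaffolds all lay above the control scaffolds, whereas the 4T07 scaffold replicate 3 lay below the highest control. S100a8 and S100a9 were called against control scaffolds with 4T07 tumors, with log2 fold changes of 2.01 (SE 0.55, adjusted p = 0.0263) and 2.22 (SE 0.63, adjusted p = 0.0308). Without the 4T07 scaffold replicate 1 these became 0.95 (adjusted p = 0.196) and 1.34 (adjusted p = 0.163) and were no longer called. Without the control scaffold replicate 1 they were not called either, at 1.78 (adjusted p = 0.115) for S100a8 and 1.84 (adjusted p = 0.13) for S100a9. With 4T1 tumors the values were 1.44 (SE 0.54, adjusted p = 0.309) and 1.49 (SE 0.62, adjusted p = 0.349), which did not pass. Without the control scaffold replicate 2, the highest control, S100a9 reached 3.07 (adjusted p = 0.027) with 4T1. The S100a8 change was smaller in scaffolds than in lungs, with a difference of -4.49 (SE 0.65, adjusted p = 5.07e-06) on the log2 scale for 4T07 and -5.07 (SE 0.66, adjusted p = 5.15e-06) for 4T1.

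Among primary tumors S100a8 was at 11.83, 200.6 and 8.187 CPM with 67NR, at 2070, 800.1 and 423.1 CPM with 4T07 and at 412.5, 249.0 and 400.0 CPM with 4T1. The 3 lines did not overlap, and the 67NR tumor replicate 2, with the raised lung epithelium markers, was the sample at 200.6 CPM. The log2 fold change of 4T07 against 67NR tumors was 3.60 (SE 0.88, adjusted p = 0.00419) for S100a8 and 4.21 (SE 0.85, adjusted p = 0.00106) for S100a9. For 4T1 against 67NR tumors S100a9 was called at 2.21 (SE 0.79, adjusted p = 0.0434) but not S100a8 at 2.03 (SE 0.83, adjusted p = 0.0757). DESeq2 did not call S100a9 in that comparison (2.16, adjusted p = 0.144). Without the 67NR tumor replicate 2, the values for 4T07 against 67NR tumors were 6.54 for S100a8 and 6.85 for S100a9, and those for 4T1 against 67NR tumors were 4.97 (adjusted p = 4.86e-05) and 4.85 (adjusted p = 6.81e-05). Without that library, which is in neither group, both genes were also called lower in 4T1 than in 4T07 tumors. The values were -1.57 (adjusted p = 0.0216) for S100a8 and -2.00 (adjusted p = 0.00661) for S100a9. With all libraries the same log2 fold changes, -1.57 (adjusted p = 0.212) and -2.00 (adjusted p = 0.0926), were not called. The 4T07 tumor replicate 1 was the highest 4T07 tumor for both genes, and 4T1 against 4T07 tumors without it is not reported here. Without the 4T07 tumor replicate 1, the values for 4T07 against 67NR tumors were 2.72 (adjusted p = 0.0248) for S100a8 and 3.28 (adjusted p = 0.00627) for S100a9, and S100a9 in 4T1 against 67NR tumors was 2.17 (adjusted p = 0.0384).

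**Figure D2:**
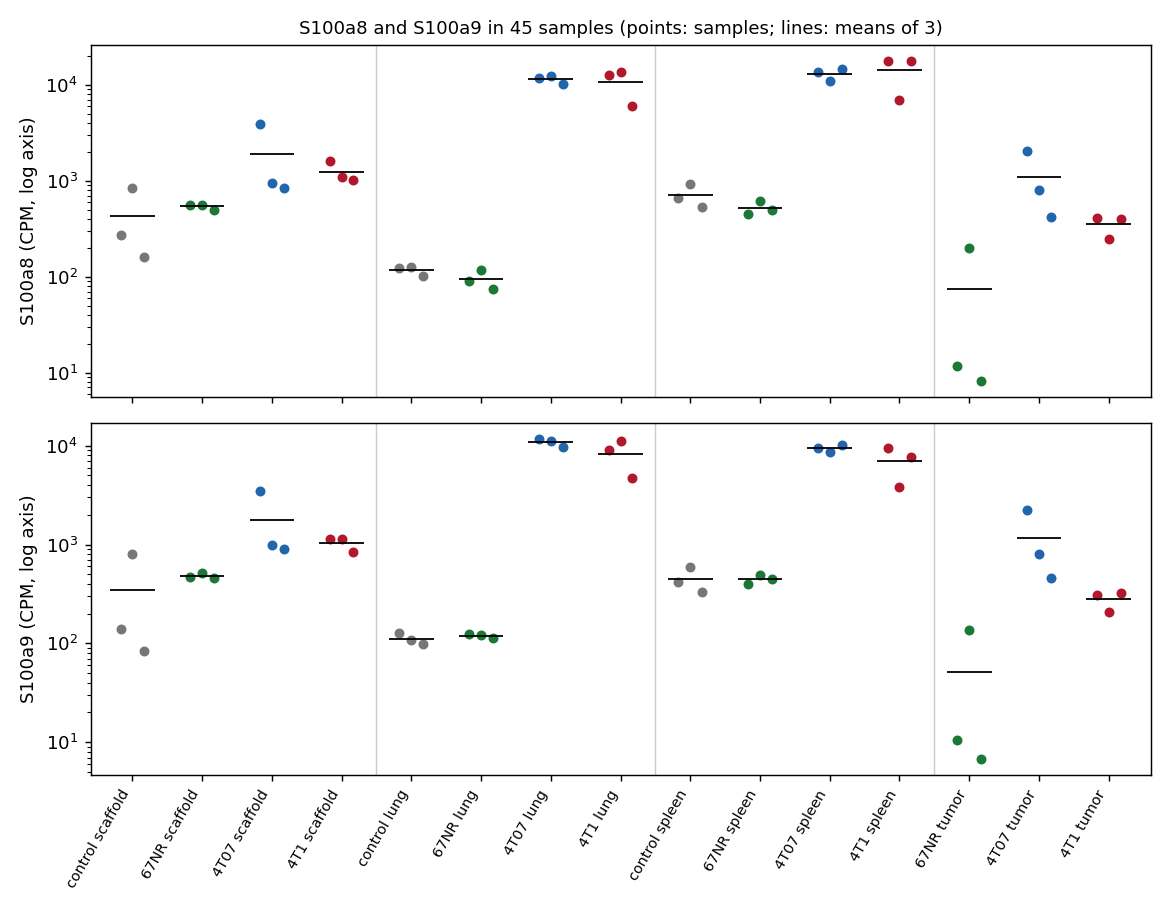
Level of S100a8 (top) and S100a9 (bottom) in CPM on a log axis in each of 45 samples, by group; points are samples and black lines are means of 3. Lungs and spleens of mice with 4T07 and 4T1 tumors lie above their control and 67NR groups, S100a8 in control lungs between 102.8 and 127.0 CPM, and 1 sample stands high in the 4T07 scaffolds, the control scaffolds and the 67NR tumors.

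Markers of neutrophils moved with these 2 genes, and their part in the result was not tested. All 8 mature neutrophil markers, which include Csf3r, Cxcr2 and Ly6g, had more than 3 counts in every group, none was at 0, and their summed level was 56.97 to 70.33 CPM in control lungs, 908 to 1111 CPM in 4T07 lungs and 940 to 2258 CPM in 4T1 lungs. In spleens this sum was 133.2 to 175.8 CPM in controls, 888.2 to 1104 CPM with 4T07 and 838.2 to 1415 CPM with 4T1. The sum of 10 genes of immature granules, such as Mpo, Camp and Ltf, differed between the lines in lungs, at 4893 to 6572 CPM with 4T07 and 719.0 to 2100 CPM with 4T1, against 144.4 to 193.9 CPM in control lungs; 8 of the 10 had more than 3 counts in control lungs and all 10 in the 4T07 and 4T1 lungs. S100a8 divided by the mature neutrophil sum was 1.83 ± 0.05 (SD, n = 3) in control lungs, 11.5 ± 1.3 in 4T07 lungs and 6.45 ± 0.39 in 4T1 lungs. This ratio did not overlap between any of those 3 groups. The order of 4T07 and 4T1 depends on the sum used. S100a8 overlapped between the 4T07 and 4T1 lungs, while the immature granule sum was higher in all 4T07 lungs. Per unit of the immature granule sum, S100a8 was therefore higher with 4T1 than with 4T07. Scaffolds already held a mature neutrophil sum of 542 to 1542 CPM without a tumor, and 1006.5 to 1205 CPM with 4T07. S100a8 per unit of that sum was 0.175 to 0.547 in control scaffolds and 3.29, 0.790 and 0.827 in 4T07 scaffolds. Those groups did not overlap, and the 4T07 scaffold replicate 1 was highest. The immature granule sum was 21.25 to 44.97 CPM in control scaffolds, 216.8 to 1533 CPM with 4T07 and 110.8 to 392.3 CPM with 4T1. A sum of 9 macrophage and monocyte markers was 3335 to 3476 CPM in control scaffolds, against 488.3 to 550.7 CPM in control lungs. The part of any of these sums in the scaffold values was not tested. Which cells gave the mature neutrophil sum of the scaffolds was not tested either.

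After subtraction of each tissue's mean, log2(CPM + 1) of S100a8 and S100a9 had a Pearson's r of 0.993 over the 45 samples. Among 12047 genes with a mean of at least 5 CPM, the genes most like S100a8 after S100a9 were Mmp8, a collagenase of neutrophil granules (r = 0.973), and Cstdc5 (r = 0.968), and those most like S100a9 after S100a8 were Mmp8 (r = 0.975) and Ly6g (r = 0.962). These values describe 45 samples that share groups and libraries. The ratio of S100a8 to S100a9 counts within a sample varied far less than either gene but was not constant. It was 1.87, 1.85 and 2.32 in 4T1 spleens and 1.43, 1.27 and 1.44 in 4T07 spleens, without overlap, and 1.60, 1.55 and 1.62 in control spleens, which lay between the lines. In lungs it was 1.42, 1.22 and 1.28 with 4T1 and 1.00, 1.10 and 1.06 with 4T07, again higher with 4T1 and without overlap. In tumors it was 1.33, 1.20 and 1.23 with 4T1 and 0.919, 0.990 and 0.932 with 4T07. Scaffolds did not share this separation, at 1.41, 0.944 and 1.23 with 4T1 and 1.15, 0.974 and 0.925 with 4T07, and control scaffolds had 1.94, 1.04 and 1.94. With 3 samples against 3, exact permutation of the samples cannot give a p under 0.1, so these ratios are given as a description.

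**Figure D3:**
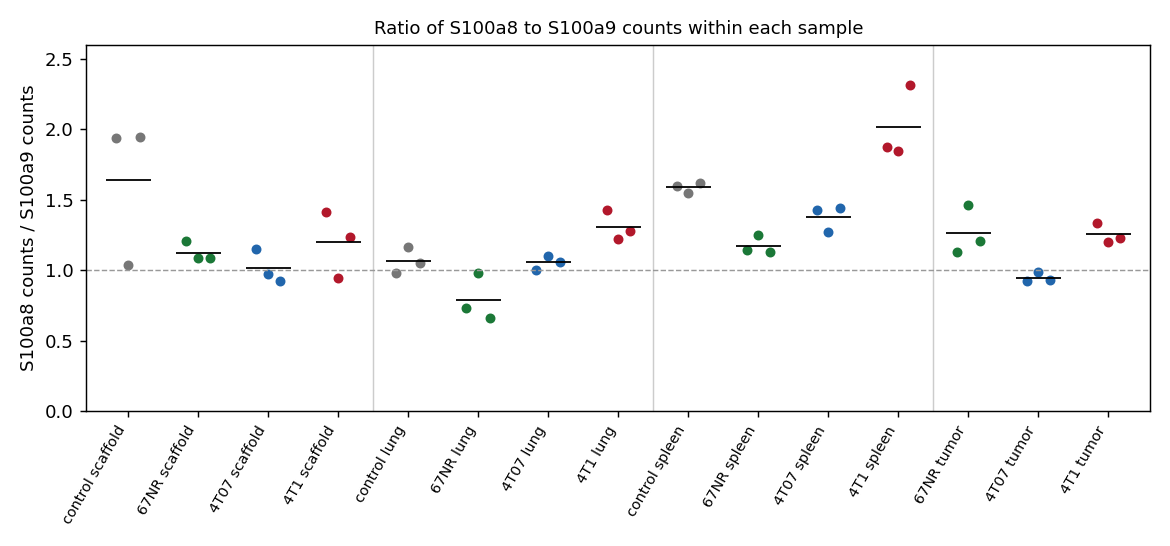
Ratio of S100a8 counts to S100a9 counts in each sample, by group; points are samples, black lines are means of 3, and the dashed line marks equal counts. The 4T1 spleens lie at 1.85 to 2.32, 2 of the control scaffolds lie at 1.94, and the 4T1 samples lie above the 4T07 samples in lungs, spleens and tumors but not in scaffolds.

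S100a8 and S100a9 are neighbors, and S100a6 and S100a11, the other members that moved most alike (r = 0.927), lie farther apart. In the RefSeq annotation of GRCm38.p6, 8 of the 9 members lie on chromosome 3 and S100g lies on chromosome X. The run from S100a1 to S100a9 holds 12 protein-coding genes, and 56 protein-coding genes lie between S100a9 and S100a11. The RefSeq promoter windows of these 2 pairs, 250 bases before and 50 after the annotated start, are shown 5′ to 3′ on the strand of the gene, because the genes of each pair moved together. Capitals mark matches on either strand to TATAAA (the TATA box), TGANTCA (AP-1 family), TTNNGNAA (C/EBP family), GGAAGT (PU.1 and other ETS factors) or CACGTG (E-box).
S100a8, chr3:90668821-90669120, plus strand, and S100a9, chr3:90695672-90695971, minus strand:
S100a8: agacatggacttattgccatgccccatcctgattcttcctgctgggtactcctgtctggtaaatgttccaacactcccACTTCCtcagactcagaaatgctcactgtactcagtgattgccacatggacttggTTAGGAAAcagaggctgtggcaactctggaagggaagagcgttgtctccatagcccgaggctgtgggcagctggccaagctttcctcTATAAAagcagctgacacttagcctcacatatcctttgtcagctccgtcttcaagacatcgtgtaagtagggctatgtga
S100a9: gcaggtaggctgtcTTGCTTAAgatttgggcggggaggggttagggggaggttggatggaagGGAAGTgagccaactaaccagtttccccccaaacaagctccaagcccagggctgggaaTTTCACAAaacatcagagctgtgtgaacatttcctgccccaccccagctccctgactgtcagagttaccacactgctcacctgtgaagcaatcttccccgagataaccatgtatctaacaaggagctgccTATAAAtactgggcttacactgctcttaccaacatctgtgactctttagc
S100a6, chr3:90612644-90612943, plus strand, and S100a11, chr3:93520246-93520545, plus strand:
S100a6: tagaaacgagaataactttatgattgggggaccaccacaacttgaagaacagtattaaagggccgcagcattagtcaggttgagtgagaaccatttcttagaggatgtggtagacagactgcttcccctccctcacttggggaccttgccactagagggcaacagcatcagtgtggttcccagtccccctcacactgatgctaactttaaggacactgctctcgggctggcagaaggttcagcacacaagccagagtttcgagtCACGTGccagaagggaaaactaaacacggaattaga
S100a11: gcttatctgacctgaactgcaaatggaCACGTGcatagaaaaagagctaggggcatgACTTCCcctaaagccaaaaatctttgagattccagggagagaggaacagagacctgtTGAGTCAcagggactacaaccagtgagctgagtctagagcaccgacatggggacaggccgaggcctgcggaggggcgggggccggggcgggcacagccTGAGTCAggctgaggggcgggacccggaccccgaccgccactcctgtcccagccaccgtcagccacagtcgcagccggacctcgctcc
The windows of S100a8 and S100a9 each held TATAAA, TTNNGNAA and GGAAGT. In S100a8 these began 30, 117 and 172 bases before the start, and in S100a9 TATAAA began at base 1 of the annotated transcript, TTNNGNAA 130 and 236 bases before the start and GGAAGT 188 bases before it. TATAAA was present in 13.6%, TTNNGNAA in 40.7% and GGAAGT in 23.8% of all 32851 promoter windows of that length. The S100a11 window held TGANTCA (in 7.81% of windows) 38 and 136 bases before the start, GGAAGT and CACGTG (7.15%), whereas the S100a6 window shared with it CACGTG, 15 bases into the transcript, and no other motif. S100a10 had no entry. A match describes these letters only.

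S100a4, which binds nonmuscle myosin and is known as a marker of fibroblasts and motile cells, differed between each pair of tumor lines. It was at 5453, 3474 and 3721 CPM in 67NR tumors, at 352.8, 380.3 and 202.4 CPM in 4T07 tumors and at 779.4, 1125 and 413.3 CPM in 4T1 tumors. The 3 groups did not overlap. Against 67NR tumors the log2 fold change was -4.00 (SE 0.34, adjusted p = 4.25e-07) in 4T07 and -2.65 (SE 0.32, adjusted p = 1.45e-05) in 4T1, and 4T1 lay above 4T07 tumors by 1.35 (SE 0.31, adjusted p = 0.00792). Without the 4T1 tumor replicate 2 that last difference was 1.00 (adjusted p = 0.0573) and not called. Fibroblast markers (Col1a1, Col1a2, Pdgfra, Dcn and Lum, all present in every tumor group) ran the other way, at a sum of 617.6 to 823.2 CPM in 67NR tumors against 3527 to 5424 CPM in 4T07 and 4222 to 7054 CPM in 4T1 tumors; their part in the result was not tested.

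S100a4 also separated the 2 invasive lines in spleens, where S100a8 and S100a9 were not called. It was at 232.4, 258.2 and 161.7 CPM in control spleens, at 66.79, 130.8 and 110.8 CPM with 67NR, at 1084, 794.0 and 435.9 CPM with 4T07 and at 69.75, 125.4 and 96.20 CPM with 4T1. The 4T07 spleens lay above and the 4T1 and 67NR spleens below all control spleens. The log2 fold change of 4T1 against 4T07 spleens was -2.90 (SE 0.32, adjusted p = 9.72e-05), and S100a4 was the 1 member called there, in a comparison in which 2.33% of 21128 genes were called. Against control spleens it was 1.98 (SE 0.31, adjusted p = 0.000175) with 4T07, -0.91 (SE 0.30, adjusted p = 0.0322) with 4T1, which is under 2-fold, and -1.19 (SE 0.30, adjusted p = 0.0438) with 67NR. The 67NR call was lost when some single libraries were left out, with an adjusted p of 0.203 for S100a4 without the control spleen replicate 2. In spleens the fibroblast sum was 294.9 to 331.5 CPM with 4T07, 193.9 to 207.2 CPM with 4T1, 266.6 to 361.8 CPM with 67NR and 275.7 to 299.1 CPM in controls. A sum of 5 adipocyte markers was 77.62, 43.49 and 16.61 CPM in the 4T07 spleens, in the order of their S100a4 levels, and 15.58 to 24.98 CPM with 4T1. The part of either in the S100a4 values was not tested. In lungs S100a4 was at 96.58, 105.9 and 69.76 CPM in controls, 500.0, 222.8 and 169.9 CPM with 4T07 and 181.7, 149.8 and 159.8 CPM with 4T1, and it was called at 1.77 (SE 0.27, adjusted p = 2.13e-05) for 4T07 against control. Scaffolds had the reverse: 4294, 2676 and 2620 CPM in controls and 1880, 1289 and 1496 CPM with 4T07, a fall by 1.20 (SE 0.31, adjusted p = 0.0187) on the log2 scale that was not called without the control scaffold replicate 1 (-0.89, adjusted p = 0.0927). The 4T07 change in scaffolds was lower than in spleens by 3.17 (SE 0.47, adjusted p = 2.07e-05). The genes most like S100a4 over the 45 samples were Fcrls (r = 0.850), Fggy (0.836) and Cldn9 (0.835).

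S100a6, also named calcyclin, and S100a11, both partners of annexins, followed one another in tumors and spleens. S100a6 was at 12265, 17144 and 15203 CPM in 67NR tumors, 2827, 3465 and 2909 CPM in 4T07 tumors and 7760, 8181 and 6907 CPM in 4T1 tumors, with no overlap and with 4T1 between the other lines. Each pair of lines was called: -2.53 (SE 0.22, adjusted p = 4.68e-07) for 4T07 against 67NR, -1.17 (SE 0.21, adjusted p = 0.000511) for 4T1 against 67NR and 1.36 (SE 0.21, adjusted p = 0.000457) for 4T1 against 4T07. S100a11 was at 1173, 1175 and 1019 CPM in 67NR tumors, 426.5, 381.4 and 428.1 CPM in 4T07 tumors and 752.1, 918.3 and 823.0 CPM in 4T1 tumors. It had the same order, with 4T07 lower than 67NR by 1.69 (SE 0.16, adjusted p = 1.47e-06) and 4T1 above 4T07 by 1.06 (SE 0.16, adjusted p = 0.000413). The S100a11 difference between 4T1 and 4T07 lies near the 2-fold limit: it was 0.99 when genes under 10 counts in any sample were left out.

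In spleens both genes rose with both invasive lines. S100a6 was at 240.6, 355.6 and 302.3 CPM in controls, 2464, 2076 and 1231 CPM with 4T07 and 1266, 796.6 and 1232 CPM with 4T1, and the control spleens did not overlap with either. The log2 fold changes were 2.85 (SE 0.27, adjusted p = 1.95e-06) and 2.14 (SE 0.26, adjusted p = 1.72e-05), and for S100a11 1.63 (SE 0.19, adjusted p = 1.65e-05) and 1.54 (SE 0.19, adjusted p = 2.07e-05). The same immature neutrophil sum that moved with S100a8 was 7454 to 9535 CPM in 4T07 and 2567 to 7969 CPM in 4T1 spleens against 78.70 to 157.6 CPM in control spleens; its part in the S100a6 and S100a11 values was not tested. In lungs S100a6 was called with 4T1 alone of the 3 lines, from 969.8, 978.5 and 1081 CPM in controls to 2300, 2524 and 1448 CPM, at 1.06 (SE 0.21, adjusted p = 0.00233). With 4T07 it was at 1949, 1257 and 1126 CPM and passed the p but not the fold (0.58, adjusted p = 0.0267), and 4T1 against 4T07 lungs did not reach 2-fold either (0.48, adjusted p = 0.0689). Without the 4T1 lung replicate 1 the S100a6 change with 4T1 was 0.99 and without replicate 2 it was 0.89. In scaffolds S100a6 was between 1889 and 3887 CPM in all 12 samples and was called in no comparison. With 4T07 against control scaffolds it was at -0.59 (adjusted p = 0.119). S100a11 was called lower in that comparison, at -1.05 (SE 0.22, adjusted p = 0.00622), which is near the 2-fold limit. Its levels were 225.4 to 263.0 CPM with 4T07 and 330.3 to 625.5 CPM in controls. The genes most like S100a6 after S100a11 were Mapk13 (r = 0.891) and Polr2l (0.848), and those most like S100a11 after S100a6 were Prdx5 (0.837) and Arl11 (0.829).

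S100a10, the light chain of the annexin A2 complex that binds plasminogen activators and does not itself respond to calcium, was highest in 67NR tumors, at 422.5, 672.5 and 680.9 CPM. It was at 208.9, 225.3 and 224.1 CPM in 4T07 tumors and at 372.1, 351.7 and 367.4 CPM in 4T1 tumors, without overlap between the lines. It was called once among the 21 comparisons, at -1.69 (SE 0.20, adjusted p = 8.85e-06) for 4T07 against 67NR tumors. In lungs it was 181.0, 199.4 and 136.3 CPM in controls and 82.89 to 123.8 CPM in the 9 lungs of tumor-bearing mice, which all lay below the controls. Those falls, of 0.78 to 0.85 on the log2 scale, passed the adjusted p but were under 2-fold. Cnpy2 (r = 0.833) and mt-Nd1 (0.782) were among the genes most like S100a10.

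S100a1 and S100a13 overlap on chromosome 3 on opposite strands, and the strand setting of the counting is not given in the sources used here, so reads of one could have been counted for the other. S100a1, a regulator of calcium handling that is best known from heart and skeletal muscle, was highest in scaffolds, at 961.3, 734.4 and 741.1 CPM in controls. With 4T07 tumors it was at 371.5, 412.4 and 457.9 CPM, with no overlap, a fall by 1.12 (SE 0.19, adjusted p = 0.00175) on the log2 scale that became 0.95 without the control scaffold replicate 1. With 4T1 it was at 699.9, 671.9 and 847.3 CPM and was not called (-0.25, adjusted p = 0.635). Skeletal muscle markers (Acta1, Ckm and 4 others) had a summed level of 3.356 to 319.2 CPM in control scaffolds. The sum of 5 adipocyte markers was 534.7 to 698.2 CPM in control scaffolds, 493.4 to 666.4 CPM with 67NR, 272.1 to 336.6 CPM with 4T07 and 675.4 to 857.6 CPM with 4T1, lowest with 4T07 as S100a1 was. The part of either in the S100a1 values was not tested. In lungs S100a1 fell with 4T07 by 1.64 (SE 0.15, adjusted p = 1.83e-08), from 157.2 to 187.5 CPM in controls to 43.56 to 60.33 CPM, and 4T1 lungs lay above 4T07 lungs by 1.26 (SE 0.15, adjusted p = 8.17e-07). Lungs with 67NR tumors were at 94.23 to 109.3 CPM, below all control and all 4T1 lungs. That change passed the adjusted p but not the fold (-0.88, SE 0.14, adjusted p = 0.00159). In the same lungs 5 endothelium markers summed to 2564.7 to 2695.6 CPM in controls, 713.8 to 1167.3 CPM with 4T07 and 2426.8 to 2646.4 CPM with 4T1. Lung epithelium markers were also lower in 4T07 lungs, at 6183 to 15383 CPM against 37052 to 38985 CPM in controls, and erythroid markers higher, at 31919 to 43550 CPM against 6561 to 8025 CPM. In 67NR lungs, whose sums are given below with S100a13 and S100g, the endothelium sum was not lower than in controls. The epithelium sum of those lungs overlapped with the controls. The part of these sums in the lung values of S100a1 was not tested. In spleens it lay the other way: 35.54, 30.92 and 24.36 CPM in controls, 51.89, 52.98 and 46.97 CPM with 4T07 and 43.87, 36.24 and 51.87 CPM with 4T1, without overlap with the controls, at 0.91 (adjusted p = 0.00414) and 0.80 (adjusted p = 0.00927), which is under 2-fold. The difference between lung and spleen in the 4T07 change was -2.67 (SE 0.26, adjusted p = 2.02e-09). The genes most like S100a1 were Ccl6 (r = 0.878), Ptpn12 (0.815) and Calm2 (0.805).

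S100a13, which takes part in the release of Fgf1 and Il1a from cells, was at 215.6, 248.0 and 121.4 CPM in control lungs and fell with 67NR and 4T07. It was at 65.89, 82.19 and 73.78 CPM with 67NR, at 49.75, 42.74 and 40.57 CPM with 4T07 and at 121.2, 87.98 and 128.2 CPM with 4T1, so that 67NR and 4T07 lungs lay below all controls and 4T1 lungs overlapped with them. The log2 fold changes were -1.50 (SE 0.21, adjusted p = 0.0007), -2.08 (SE 0.22, adjusted p = 1.84e-07) and -0.78 (SE 0.21, adjusted p = 0.0241). The endothelium, lung epithelium and erythroid sums given for S100a1 moved with the 4T07 value, and their part in it was not tested; with 67NR the endothelium sum was 2721 to 2947.9 CPM. In scaffolds S100a13 was at 162.6, 161.0 and 153.0 CPM in controls and 97.00, 64.87 and 59.18 CPM with 4T07 (-1.26, adjusted p = 0.0128). In tumors it was lower in 4T07 than in 67NR by 1.41 (SE 0.21, adjusted p = 8.09e-05). The genes most like S100a13 were Cebpzos (r = 0.902), Anapc13 (0.899) and Alg5 (0.883).

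**Figure D4:**
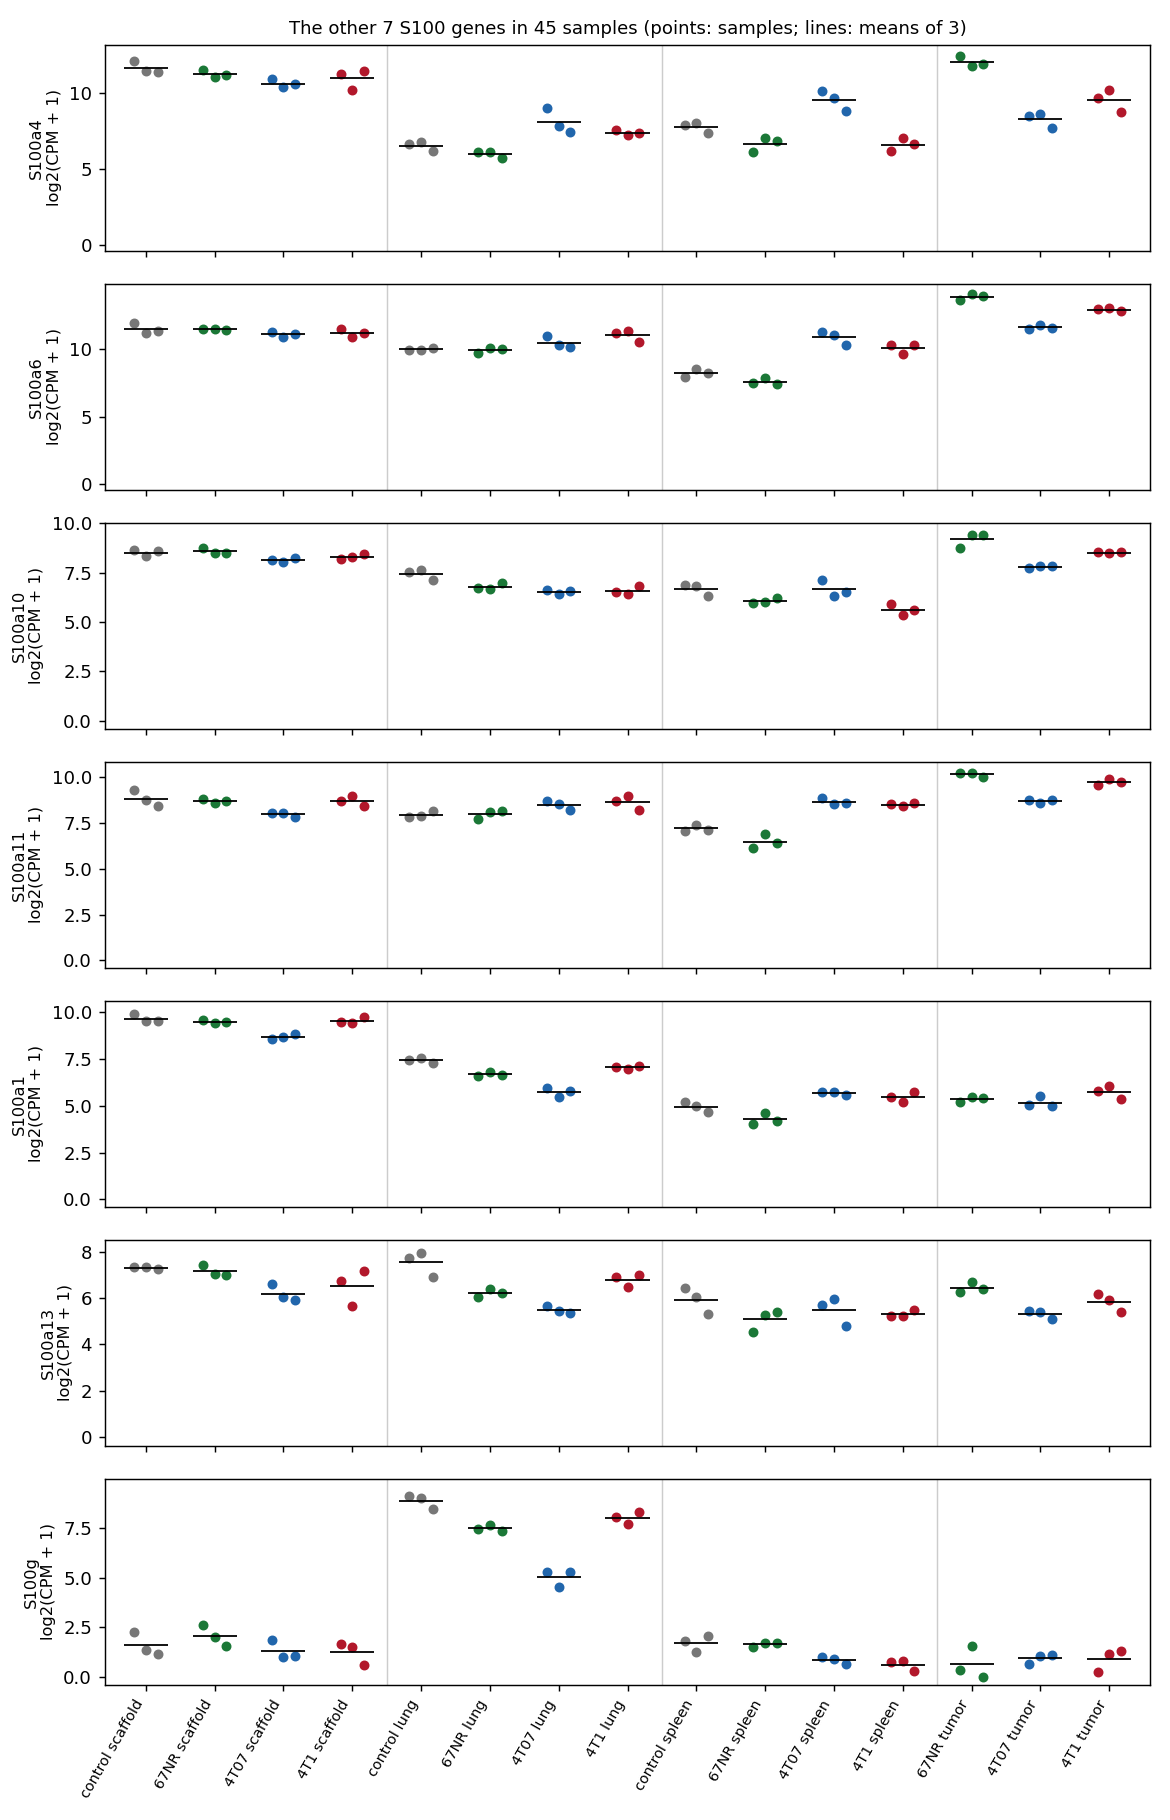
Levels of the other 7 genes as log2(CPM + 1) in each of 45 samples, by group; points are samples and black lines are means of 3. S100a4, S100a6, S100a10 and S100a11 are highest in 67NR tumors, S100a1 is highest in scaffolds, and S100g lies at 22.09 to 561.3 CPM in lungs and at or under 5.173 CPM elsewhere.

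S100g was a lung gene in these samples. It was at 561.3, 526.4 and 354.6 CPM in control lungs, and at or under 5.173 CPM in all scaffolds, spleens and tumors. With 67NR tumors the lungs had 178.5, 199.3 and 161.0 CPM, with 4T07 tumors 38.53, 22.09 and 38.18 CPM and with 4T1 tumors 265.6, 208.2 and 320.1 CPM. The 4 groups of lungs did not overlap, in the order control, 4T1, 67NR and 4T07. Against control lungs the log2 fold change was -3.81 (SE 0.24, adjusted p = 9.49e-11) with 4T07, -1.53 (SE 0.21, adjusted p = 0.000594) with 67NR and -0.85 (SE 0.21, adjusted p = 0.0136) with 4T1, which is under 2-fold. The lungs with 4T1 lay above those with 4T07 by 2.96 (SE 0.23, adjusted p = 3.39e-09).

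Lung epithelium markers were also lower in 4T07 lungs, and their part in the S100g values was not tested. The sum of 8 such markers (Sftpc, Sftpb, Sftpa1, Sftpd, Lamp3, Hopx, Aqp5 and Scgb1a1, none at 0 in any lung group) was 37052 to 38985 CPM in control lungs, 32877 to 38421 CPM with 67NR, 29574 to 36742 CPM with 4T1 and 6183 to 15383 CPM with 4T07. In the same 4T07 lungs 6 erythroid markers summed to 31919 to 43550 CPM against 6561 to 8025 CPM in controls. S100g per 1000 CPM of the epithelium sum was 12.7 ± 3.2 (SD, n = 3) in control lungs, 7.98 ± 1.46 with 4T1, 5.09 ± 0.40 with 67NR and 3.06 ± 0.55 with 4T07. Relative to that sum, the 67NR and 4T07 lungs lay below all control lungs, and the 67NR lungs fell in S100g with an epithelium sum close to that of the controls. The 4T1 lungs overlapped with the controls on this scale. In RefSeq S100g lies within the span of Ctps2, and without the strand setting of the counting, reads of the pair cannot be told apart. The genes most like S100g over the 45 samples were Fabp1 (r = 0.862), Itih4 (0.859) and Scgb1c1 (0.857).

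**Figure D5:**
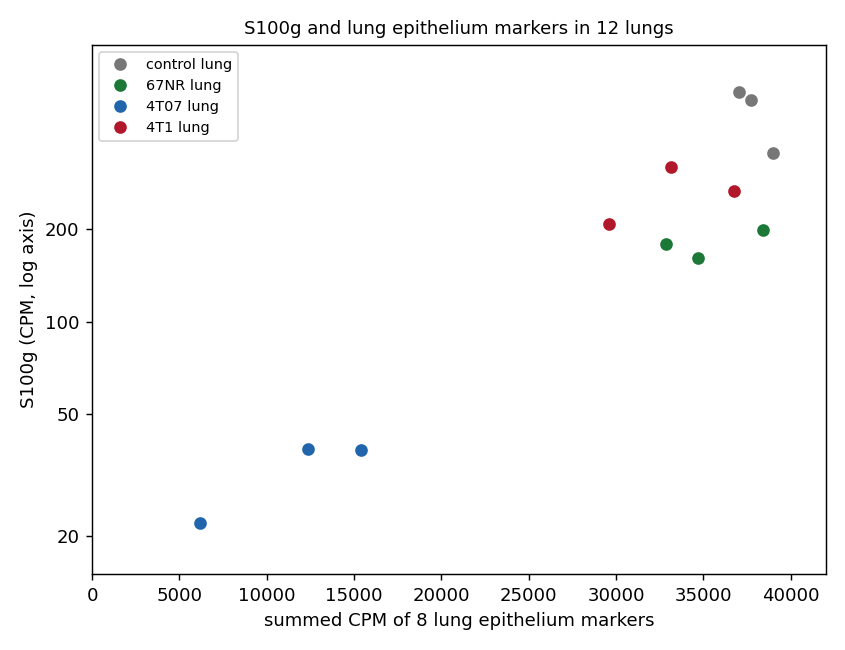
S100g in CPM on a log axis against the summed CPM of 8 lung epithelium markers in 12 lungs; points are samples, colored by group. The 4T07 lungs lie apart at 6183 to 15383 CPM of markers and 22.09 to 38.53 CPM of S100g, and the 67NR lungs lie below the control lungs at a similar marker sum.

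Outside lungs S100g rested on few counts. Control spleens held 34 counts in all, 4T07 spleens 12 and 4T1 spleens 7, ratios of 0.352 (95% counting interval 0.166 to 0.698) and 0.230 (0.0861 to 0.527) once library totals were taken into account. The intervals cover counting error only. edgeR called both (-1.31, adjusted p = 0.0567, and -1.81, adjusted p = 0.0183), and DESeq2 did not call the S100g change with 4T07 (-1.34, adjusted p = 0.145). In tumors the ratio to 67NR was 1.25 (0.482 to 3.49) with 4T07 and 1.27 (0.496 to 3.48) with 4T1, a difference that was not detectable at this depth.

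Across tissues of healthy mice, 8 of the 9 genes were called between scaffolds and lungs (32.6% of 21602 genes), 6 between scaffolds and spleens (34.5%) and 7 between lungs and spleens (39.9%). S100a4 was higher in control scaffolds than in control lungs by 5.37 (SE 0.31, adjusted p = 2.71e-09) and S100a1 was higher than in control spleens by 4.92 (SE 0.23, adjusted p = 3.67e-10), the largest differences of the 9 genes in favor of scaffolds. S100g was higher in lungs than in scaffolds and spleens by 7.61 and 7.60 on the log2 scale. S100a8 and S100a9 were lower in control lungs than in control spleens, at -2.63 (SE 0.44, adjusted p = 0.000158) and -2.06 (SE 0.58, adjusted p = 0.00854). The group order of the levels was mostly gradual: of the 14 neighboring pairs in the order of the 15 group means, between 8 (S100a10 and S100a1) and 13 (S100a13) overlapped in their samples.

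The change against control itself differed between tissues. Among the 9 genes, the 4T07 change was called different between scaffold and lung for 6 genes (15.1% of 26665 genes), between scaffold and spleen for 6 (11.9%) and between lung and spleen for 8 (16.8%). The 4T1 change differed for 3 (0.986%), 5 (10.7%) and 5 (11.5%). The called differences between scaffold and spleen were all in the direction of a lower value in scaffolds, a direction in which 4.98% (4T07) and 5.25% (4T1) of all genes were called, and those of S100a8, S100a9, S100a6, S100a11 and S100a1 were called for both lines.

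Receptors of extracellular S100 proteins were examined in the tissues where S100a8 and S100a9 rose. Of 11 receptor genes, among them Tlr4, Cd14, Ager, Cd36 and Bsg, 0 were called higher and 6 lower with 4T07 against control lungs (Ager, Cd36, Emb, Mcam, Sdc1 and Sdc4, the last 5 between -1.004 and -1.49), with a median of -1.004 against -0.01 over all genes, where 29% of all genes were called, and 0 were called with 4T1, where 4.61% were. Ager, which encodes the receptor RAGE and is also a gene of alveolar type I cells, was at 1190 ± 103 CPM (SD, n = 3) in 4T1 lungs and 319.9 ± 94.4 CPM in 4T07 lungs (log2 fold change 1.85, SE 0.20, adjusted p = 2.34e-07), beside the lung epithelium sums given above. In spleens 1 of the 11 was called higher with 4T07 (Bsg, 1.04) and 2 with 4T1 (Bsg, 1.42, and Emb, 1.15), shares that do not exceed the 18.6% and 19.9% of all genes called there, and Tlr4 was called in none of the 21 comparisons within a tissue. In scaffolds Ly96, the coreceptor of Tlr4, was lower with 4T07 than in controls, at 7.26 ± 2.06 and 15.4 ± 4.4 CPM (-1.23, SE 0.28, adjusted p = 0.00996). For 4T07 against 67NR tumors, Emb (1.53) and Sdc4 (1.415) were called higher and Ager (-2.48) and Mcam (-1.27) lower (28.9% of all genes called). For 4T1 against 67NR tumors, Emb (1.26) and Sdc1 (1.01) were called higher and Ager (-3.32) lower (20.7%). The part of the raised lung epithelium markers of the 67NR tumor replicate 2 in the Ager values was not tested.

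Among the 9 annexin genes, 8 were tested. Anxa1 and Anxa3 were called higher in spleens with 4T07 and with 4T1 against control, with 0 lower, where 18.6% and 19.9% of all genes were called, and against 67NR Anxa2, the partner of S100a10, was called as well, at 1.18 with 4T07 and 1.08 with 4T1. Anxa1, an inhibitor of inflammation that binds S100a11, was at 382.2 ± 209.8 CPM in 4T1 spleens and 21.4 ± 6.0 CPM in 67NR spleens (4.51, SE 0.42, adjusted p = 1.52e-06), and Anxa3 at 101 ± 18 CPM in 4T07 and 18.5 ± 0.6 CPM in 67NR spleens (2.71, SE 0.29, adjusted p = 7.02e-06). In 4T07 lungs 1 annexin was called higher (Anxa1) and 3 lower (Anxa4 at -1.42, Anxa5 at -1.84 and Anxa8 at -1.41), where 29% of all genes were called, with a median of -0.68 against -0.01 over all genes. In tumors Anxa8 was higher in 4T1 than in 67NR (15.1 ± 3.2 and 1.03 ± 0.90 CPM, 3.65, SE 0.58, adjusted p = 0.000189), and in scaffolds 0 of 8 were called in any comparison.

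Of 14 genes for intracellular partners, 13 were tested. Ahnak, a large protein of the membrane skeleton bound by S100a10, fell with 4T07 in lungs and was lower in 4T07 tumors. It was at 232.3 ± 58.2 CPM in 4T07 and 1275 ± 218 CPM in control lungs (-2.40, SE 0.19, adjusted p = 2.64e-09) and at 446.9 ± 62.1 CPM in 4T07 and 1027 ± 115 CPM in 67NR tumors (-1.44, SE 0.18, adjusted p = 1.32e-05). In 4T07 scaffolds 3 partners were called lower (Ahnak, Il1a at -2.26 and Plat at -1.03) and 0 higher, where 7.44% of all genes were called, and in 4T1 scaffolds 0 were called against control (0.0226%). Plat, tissue plasminogen activator, was higher in 4T1 than in 67NR tumors, at 57.1 ± 10.7 and 16.6 ± 8.1 CPM (1.58, SE 0.29, adjusted p = 0.000582). Trp53 rose with 4T07 in lungs, to 31.5 ± 9.0 from 10.4 ± 1.9 CPM (1.66, SE 0.21, adjusted p = 2e-06). Fgf1, whose release S100a13 aids, was lower in 4T07 than in 67NR spleens, at 10.4 ± 0.3 and 35.2 ± 2.7 CPM (-1.50, SE 0.25, adjusted p = 0.000618).

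Of 7 genes of vitamin D and calcium transport, 4 were tested in lungs. Trpv6, a calcium channel of absorptive epithelia, and Vdr, the vitamin D receptor, were called lower with 4T07 against control lungs (-2.86, SE 0.74, adjusted p = 0.00362, and -1.11, SE 0.29, adjusted p = 0.00341), in a comparison in which 29% of all genes were called. With 67NR (4.25% of all genes called) and 4T1 (4.61%), 0 of the 4 were called. Trpv6 was also called higher in 4T1 than in 4T07 lungs (2.28, SE 0.78, adjusted p = 0.0265). Among the 7 other S100 genes, S100a14 fell with 4T07 from 35.4 ± 8.5 to 6.61 ± 3.16 CPM in lungs (-2.36, SE 0.29, adjusted p = 1.43e-06), and S100a7a, S100a14 and S100a16 were lower in 4T07 and in 4T1 than in 67NR tumors, the same direction as S100a4 and S100a6. S100a7a had 10.2 ± 2.1 CPM in 67NR tumors against 1.91 ± 0.44 CPM with 4T1 (-2.59, SE 0.33, adjusted p = 2.61e-05).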

How the data were processed

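RNA was measured in 45 samples, 3 in each of 15 groups defined by tissue and by inoculated line, as given in the sample labels. Libraries were made with a QuantSeq 3′ kit and unique molecular identifiers and, per the submitters' processing notes, processed with Trim Galore 0.5.0, STAR 2.6.0 and featureCounts. The authors deposited a table of raw counts, whole numbers for each gene symbol that they had not normalized. The genome build, the annotation, the strand setting and whether identifiers were collapsed are not given in the sources used here, and counts of molecules and of duplicated reads cannot be told apart.

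The table has 55487 lines, and 120 lines that repeat a symbol were added up. Levels are CPM without further scaling. Library totals of 3491888 to 8175380 counts mean that the floor of 3 counts lies at or under 0.859 CPM. Each tissue was fitted in one model with all of its groups, over genes with more than 10 counts in that tissue, with edgeR 4.0.16 (R 4.3.3, limma 3.58.1): the quasi-likelihood test after TMM normalization, with p-values adjusted by Benjamini-Hochberg across the genes of the fit. Control samples were fitted likewise for differences between tissues, and all scaffolds, lungs and spleens for interactions. A call needed a fold above 2 and an adjusted p below 0.05 for tumors or below 0.1 for the other fits. Fold changes are edgeR's unless DESeq2 1.42.0 is named. Likeness is the Pearson correlation of log2(CPM + 1) after subtraction of tissue means.

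The fits were tested on simulated counts in which 200 genes were changed 4-fold. Every simulated gene had the same fixed dispersion, and only well-counted genes were changed, by more than the 2-fold limit of a call. The shares recovered therefore do not measure how reliable calls are for genes with wide spread, few counts or smaller changes. For 4T07 against 67NR tumors (19981 genes) edgeR recovered 99.5% of them, with 0.5% of its calls in unchanged genes, and for the 4T07 change in scaffold minus lung (26211 genes) 96% and 8.57%. The 45 pairs of samples within a group all differed by more than counting noise (chi-square per degree of freedom 3.88 to 36.0).

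The 9 genes, the marker lists and the pathway lists were chosen with earlier results of these data known. All members are named, each with the 3 genes most like it at a mean of at least 5 CPM, of which 1 for S100a10 is not reported here. Of the pathway lists, up to 3 genes for each direction and tissue with the largest fold and a mean of at least 5 CPM qualify to be named with levels, and the other called genes were named after their values were seen. Promoter sequences come from RefSeq (GRCm38.p6) and were matched by symbol for 8 members. The alternatives were DESeq2 with its Wald test, edgeR with the size factors of DESeq2, fitting all genes, fitting genes that reached 10 counts in each sample, fitting the compared pair of groups alone, and leaving out each library in turn.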

Additional observations from a re-analysis of the deposited data

Results flagged for a closer look

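The differences between tissues in the change against control were tested as interaction terms, and 33 of 54 values for the 9 genes passed. In the same 6 comparisons between 0.986% and 16.8% of 26665 genes passed. They are given as a log2 difference, the first tissue minus the second; both tumor lines are compared with the same control samples. A difference of this kind does not say in which tissue the change lies.

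S100a8 passed in all 6 differences. For 4T07 they were -4.49 for scaffold minus lung, -2.32 for scaffold minus spleen and 2.17 for lung minus spleen, and for 4T1 they were -5.07, -3.14 and 1.93. S100a9 passed in all 6 as well, at -4.30, -2.31 and 1.99 for 4T07 and -4.72, -2.73 and 2.00 for 4T1. Without the control scaffold replicate 2 the difference between scaffold and spleen with 4T07 was -1.39 (adjusted p = 0.132) for S100a8 and -0.73 (adjusted p = 0.418) for S100a9, and with 4T1 it was -1.15 (adjusted p = 0.183) for S100a9. The S100a9 difference between lung and spleen with 4T1 was not called without the 4T1 lung, 4T1 spleen or control spleen replicate 2, where its adjusted p was 0.113 to 0.13.

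S100a6 also passed in all 6, at -1.02, -3.42 and -2.40 for 4T07 and -1.47, -2.57 and -1.09 for 4T1 in the same order. S100a11 passed for 4T07 at -1.53, -2.66 and -1.13, and for 4T1 at -1.83 for scaffold minus spleen. S100a4 passed for 4T07 at -2.83 for scaffold minus lung and -3.17 for scaffold minus spleen, and for 4T1 at 1.76 for lung minus spleen.

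S100a1 passed at -2.02 for scaffold minus spleen and -2.67 for lung minus spleen with 4T07, and at -1.04 and -1.19 with 4T1. S100a10 and S100a13 each passed once, for 4T07 in lung minus spleen, at -1.15 and -1.91. S100g passed for 4T07 at 3.49 for scaffold minus lung and -2.62 for lung minus spleen. Without the control scaffold replicate 1, S100a6 in scaffold minus lung was -0.72 (adjusted p = 0.189) with 4T07 and -1.12 (adjusted p = 0.199) with 4T1, and S100a1 in scaffold minus spleen with 4T1 was -0.81, so that none of these was called. S100a6 in both lines in scaffold minus lung, S100a6 with 4T1 in lung minus spleen, S100a1 with 4T1 in scaffold minus spleen and S100a10 were also not called without some other single libraries, at -0.76 to -1.32 for S100a6, -0.87 to -0.95 for S100a1 and -0.90 to -0.97 for S100a10. No test for single samples that stand apart was run in groups of 3. The libraries named at the start as standing apart were picked out by their marker sums.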

How the results depend on the processing

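No called value of the 9 genes changed sign under any alternative. Of 260 single values tested with DESeq2, 254 kept their side of the threshold, as did 269 of 270 with DESeq2 size factors, 258 of 270 without a filter, 240 of 246 with at least 10 counts in every sample, 185 of 189 with only the compared groups in the fit and 4261 of 4374 with 1 library left out. Without a filter, 5 genes in place of 3 were called between the lines in scaffolds, with S100a8 and S100a9 added for 4T1 against 67NR (1.17 and 1.07); the cause was not tested. In the main fit S100a8 and S100a9 were at 1.17 (adjusted p = 0.490) and 1.07 (adjusted p = 0.590) there. The share of all genes called without a filter is not reported here, so a rise in calls of all genes cannot be told apart. With 1 library left out, the calls against control were 1 to 7 in scaffolds, 10 to 14 in lungs and 11 to 14 in spleens, where all libraries gave 6, 11 and 13. The calls between lines were 0 to 3 in scaffolds, 11 to 12 in lungs, 13 to 15 in spleens and 10 to 16 in tumors, against 3, 11, 13 and 13. Between control tissues they were 20 to 22 against 21, and for differences between tissues in the change against control 30 to 34 against 33. The share of all genes called with 1 library left out is not reported here. S100a10 in 4T1 against 4T07 spleens sat at the 2-fold limit (-0.99) and was called under all 5 alternatives that kept every sample of both groups, from -1.02 to -1.04, and with some single libraries left out. Single libraries decided the calls of S100a8 and S100a9 against control scaffolds, as given with those values. With at least 10 counts in every sample, the median log2 fold change of all genes shifted by -0.152 for 4T07 and -0.107 for 4T1 against 67NR tumors and by up to -0.182 in the differences between tissues; without a filter the latter shifted by up to -0.154. No paired analysis was possible because the labels do not link the tissues of a mouse and the replicate numbers were given in accession order. Of 3 samples a group, 1 library can decide a value near a threshold, and S100g outside lungs is limited by depth.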
